A study of Mus musculus with 17 samples.

Results

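Claustrum-like nuclei were picked out of single-nucleus RNA-seq (sNucDrop-seq) of mouse neocortex by a gate on marker genes. A nucleus was a member when it held at least 1 UMI (a counted RNA molecule) of Nr4a2 and at least 1 UMI of 2 or more of Gnb4, Synpr, Ntng2 and Oprk1, with no UMI of Gad1 or Gad2 (inhibitory neurons) and none of Slc1a3 (astrocytes) or Rgs9 (striatal neurons). The gate took 307 of the 31486 nuclei that passed the quality filters, which is 0.975% of them. Members were therefore chosen by their measured levels of these 9 genes, and the levels of those genes are given as a description, without a test.

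The nuclei came from male C57BL/6J mice, 4 control and 4 exposed to chronic unpredictable stress (CUS). CUS mice, 9 to 10 weeks old at the start, met changing stressors for 12 days, and control mice were handled and kept in another room. Neocortex was taken 24 h after the last stressor, and the labels put the mice at postnatal day 80. A second set of mice, 4 control and 5 CUS at postnatal day 90, gave bulk RNA-seq of nuclei from the medial prefrontal cortex (mPFC), which the study's methods say was taken after behavioural tests, 24 h after the last of them. The labels name no transgene and no sort for a cell type. The 8 single-nucleus libraries kept 2267 to 4959 nuclei each, with a median of 1863 to 2566 UMIs per nucleus, and the bulk libraries held 26188825 to 30525015 reads on genes. Any pair of libraries shared 0 to 4 barcodes among the nuclei kept. The nuclei were prepared in 2 batches, each with control and CUS mice. The study reports a profound batch effect on its test of gene expression and fitted batch as a factor. Since the labels do not say which mouse belonged to which batch, no batch term could be fitted here. Batch variation therefore stays in the comparisons of nuclei between conditions.

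The claustrum is a thin sheet of grey matter that lies beneath the insular cortex, beside the striatum, and its projection neurons exchange connections with much of the neocortex. Nr4a2 encodes an orphan nuclear receptor that acts as a transcription factor and, in many neurons, is also induced by activity. It marks the claustrum and neighbouring deep cortical neurons, as well as subplate-derived neurons of layer 6b. Gnb4 encodes a G protein beta subunit, Synpr a synaptic vesicle protein, Ntng2 a membrane-anchored netrin that binds the postsynaptic ligand Lrrc4, and Oprk1 the kappa opioid receptor, whose ligand is dynorphin. In mm10, Nr4a2 (ENSMUSG00000026826) lies on the minus strand of chromosome 2 from 57106830 to 57124003, Gnb4 on chromosome 3 from 32580332 to 32616585, Synpr on chromosome 14 from 13284780 to 13616340, Ntng2 on chromosome 2 from 29194541 to 29253005 and Oprk1 on chromosome 1 from 5588466 to 5606131.

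Nr4a2 by itself was not restricted to the members. An Nr4a2 UMI was found in 1769 nuclei, of which 455 also had 2 or more of the 4 markers. Absence of Gad1 and Gad2 left 375 of these, and absence of Slc1a3 and Rgs9 left the 307 members. Members contributed 1108 of the 3403 Nr4a2 UMIs of the whole data set, or 32.6%. Among non-members, 226 Nr4a2 UMIs, or 6.64%, came from 128 nuclei with a layer 6b marker, and 623, or 18.3%, from 6745 other excitatory nuclei. The latter were defined as nuclei with a Slc17a7 UMI that met the same exclusions and were not members. These groups overlap, since a nucleus with a layer 6b marker and Slc17a7 counts in both.

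The marker combinations varied among members. All 4 markers had a UMI in 110 members, 3 of them in 115 and 2 of them in 82. The 2 most frequent combinations were all 4 markers (35.8% of members) and Gnb4, Synpr and Oprk1 without Ntng2 (16.9%). The median member held 3 Nr4a2 UMIs, and 83 members passed on 1 Nr4a2 UMI. Gnb4 was detected in 85.3% of members, Synpr in 87.3%, Oprk1 in 73.9% and Ntng2 in 62.5%. In oligodendrocyte nuclei, Nr4a2 had a UMI in 2.63% and Oprk1 in 0.83%. Gnb4 and Synpr were found there in 11.9% and 24.2% of nuclei. At an equal depth of 1000 UMIs they were more frequent in oligodendrocyte nuclei (8.95% and 19.8%) than in other excitatory nuclei (2.73% and 5.1%). The part of background RNA in these shares was not tested. Inhibitory nuclei had a Synpr UMI in 28.6% of cases. Just inside the threshold lay the 82 members with 2 markers, and just outside lay 203 nuclei with Nr4a2 and 1 marker. The number of markers moved with depth, since the median member had 2234 UMIs with 2 markers, 2956 with 3 and 4074 with 4.

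Markers of the claustrum and of Car3-type deep neurons that the gate did not read were used to check the label. Counts were summed per mouse and class and are given as CPM (counts scaled to a library total of 1e6), scaled by TMM factors within each comparison. Of 12 listed markers, 11 were in the files and 10 passed the filter on low counts in members, in other excitatory nuclei or in both. Between members and other excitatory nuclei of the same 8 mice, 7 of these 10 were higher in members, 2 were lower and 1 was not called (edgeR quasi-likelihood test with the mouse as a block, FDR 0.05). Among all 6770 genes tested outside the gate, 9.5% were higher and 10.3% lower. A gene that passes the filter in 1 class alone has more UMIs per nucleus there, which favours a call but does not force one. Of 777 genes that passed in members alone, 168 were called higher. Of 286 that passed in other excitatory nuclei alone, 134 were called lower. Car3, Lxn, B3gat2 and Nr2f2 passed in members alone, and Spon1 and Slc30a3 in other excitatory nuclei alone. Of the 4 markers that passed in both classes, Rxfp1, Gng2 and Cdh9 were higher and Nnat was not called. The tally of 10 is therefore a description. The nuclei on both sides of this comparison were chosen by genes expressed in the same cells, so that any gene expressed together with the gate genes had to differ, and the test says how far a difference recurred over mice.

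Car3, a carbonic anhydrase, was at 76.4, 69.6, 41.8 and 72.4 CPM in members of the control mice and at 64, 97.5, 90.5 and 96 CPM in members of the CUS mice. Other excitatory nuclei were at 0.758 ± 0.714 CPM (SD, n = 8 mice), so each mouse's members stood above them, on 83 UMIs in members and 15 UMIs in other excitatory nuclei. Latexin (Lxn), a carboxypeptidase inhibitor long used to mark the claustrum, was at 107 ± 43.5 CPM in members and 6.73 ± 1.6 CPM in other excitatory nuclei (SD, n = 8). The other markers that were higher were B3gat2 (26.9-fold), Rxfp1 (8.67-fold), Nr2f2 (7.08-fold), Gng2 (5.81-fold) and Cdh9 (2.64-fold), each in 8 of 8 mice. Gng2 encodes a G protein gamma subunit and Rxfp1 the relaxin receptor. Without TMM scaling, Rxfp1 was at 464 CPM in members and at 257 CPM in the non-member nuclei with Nr4a2 and a layer 6b marker.

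Spon1 and the vesicular zinc transporter Slc30a3 went the other way. Slc30a3 was at 13 ± 11.2 CPM in members and 66.1 ± 8.71 CPM in other excitatory nuclei (SD, n = 8), and was lower in members of all 8 mice. Nnat was at 51.8 ± 27.5 against 73.9 ± 16.2 CPM and was not called (FDR 0.145). Bmp3 had 14 UMIs in members, too few for the test.

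**Figure D1:**
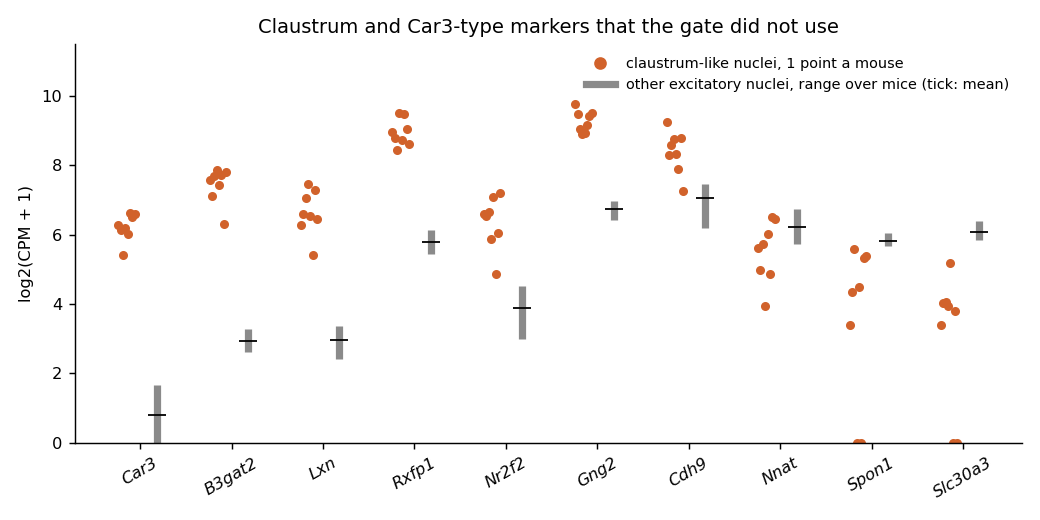
Level of 10 claustrum and Car3-type markers outside the gate, as log2(CPM + 1). Orange points are members of each of the 8 mice, and grey bars span the 8 mice's other excitatory nuclei with a tick at the mean. All 8 points lie above the bar's mean for Car3, B3gat2, Lxn, Rxfp1, Nr2f2, Gng2 and Cdh9, and below it for Spon1 and Slc30a3.

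Layer 6b neurons also express Nr4a2, so their markers were examined in the members. Nxph4 and Moxd1 had no UMI in members, where 3 counts in 1121456 UMIs would be the upper limit that a count of 0 allows. Cplx3 had 1 UMI and Ctgf 10, which is 8.92 CPM against 16.7 CPM in other excitatory nuclei. Inpp4b was at 57.1 CPM in members, at 136 CPM in other excitatory nuclei and at 670 CPM in the 128 non-member nuclei with Nr4a2 and a layer 6b marker, which were chosen by Cplx3, Ctgf, Nxph4 or Moxd1 and not by Inpp4b. A UMI of Cplx3, Ctgf, Nxph4 or Moxd1 was found in 10 members, or 3.26%.

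Markers of other cell types were read in the same sums. Both endothelial markers, Flt1 and Cldn5, were at 0. Of 5 striatal markers outside the gate, Drd2 and Adora2a were at 0, while Pde10a had 269 UMIs, Ppp1r1b had 7 and Drd1 had 28 UMIs, the last at 25 CPM in members against 7.59 CPM in other excitatory nuclei. Of 3 microglial markers, C1qa was at 0 and Ctss and Cx3cr1 had 4 UMIs each. Of 4 astrocyte markers, Gfap was at 0, Aqp4 had 1 UMI, Gja1 had 2 and Slc1a2 had 367 UMIs. The 7 inhibitory markers outside the gate summed to 156 to 271 CPM in members of the 8 mice and to 160 to 315 CPM in other excitatory nuclei. The 6 oligodendrocyte markers summed to 185 to 294 CPM in members of control mice and to 193 to 708 CPM in members of CUS mice, with all 6 detected, and other excitatory nuclei held 244 to 535 CPM. Slc17a7, a vesicular glutamate transporter, had a UMI in 169 members (55%). Slc17a6, another transporter of that family, was at 62.9 ± 24.5 CPM in members and 18.7 ± 3.99 CPM in other excitatory nuclei (SD, n = 8). It passed the low-count filter in members alone, which favours a higher value there. Of the 4 excitatory markers that passed in both classes, 3 were higher in members, among them Neurod6 (8 of 8 mice) and Tbr1 (6 of 8 mice), beside 9.5% of all genes. The 1 that was lower, beside 10.3% of all genes, was Camk2a (550 ± 73.7 against 656 ± 63.9 CPM, SD, n = 8, FDR 0.0378, lower in 7 of 8 mice). No UMI of 6 excitatory markers was found in 12 members. Among layer markers, Cux2 (layer 2/3) was at 161 ± 44.1 CPM in members and 65.6 ± 7.77 CPM in other excitatory nuclei. Il1rapl2 (layer 5/6) was at 433 ± 122 against 294 ± 49.9 CPM (SD, n = 8 each). Lower in members were 2 of 4 tested for layer 2/3, 1 of 1 for layer 4, 2 of 2 for layer 5, 1 of 2 for layer 5/6 and 3 of 3 for layer 6. Of these, 1 of layer 5, 1 of layer 5/6 and 3 of layer 6 passed the filter in other excitatory nuclei alone.

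Unsupervised clustering of all 31486 nuclei into 36 clusters placed 267 members, or 87%, in a single cluster of 441 nuclei led by Nr4a2, Oprk1, Col24a1, Col11a1 and Gnb4. The gate genes took part in that clustering, so this is a description. A further 16 members lay in a cluster led by Slc26a4 and Galnt14, and 3 in the Ctgf-led cluster. Rxfp1, Chrm2, Cdh9 and Cck were also among the leading genes of the Slc26a4 cluster, and Rxfp1 among those of the Ctgf cluster. The non-coding Gm32647 was among those of a Cpne7-led cluster and an Angpt1-led cluster, with 4 members each. Rxfp1 was also among those of the Angpt1-led cluster. High levels of these genes were therefore not particular to members. The 40 members outside the main cluster were deeper (median 5407 UMIs against 2985), and 32.5% of them had a doublet score over 0.2 against 9.36% inside it. They also had less of the markers outside the gate. Car3 was at 4.51 against 91.1 CPM, B3gat2 at 22.6 against 222 CPM and Gng2 at 171 against 774 CPM. These markers were open to the clustering as well, and B3gat2 and Lxn were among the main cluster's leading genes. This split is therefore also a description. Nuclei with Nr4a2, Slc17a7 and 1 marker, which fell just outside the gate, had Car3 at 6.94 CPM and Lxn at 18.5 CPM. Among members, Car3 was at 53.3, 77.2 and 81.8 CPM with 2, 3 and 4 markers.

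Beyond the label, 1339 of 6770 genes differed between members and other excitatory nuclei, 643 higher and 696 lower in members. Of the 5707 genes that passed the low-count filter in both classes, 475 were higher and 562 lower. With no filter, 423 genes were higher and 1513 lower. The 15 genes with the largest difference were taken among those with a UMI in at least 25% of members and the same direction in all 8 mice. Of these, 12 passed the low-count filter in members alone and 3 in both classes, so they are given as values. Col11a1 and Col24a1 encode fibrillar collagens. Col11a1 was at 907, 572, 528 and 767 CPM in members of control mice and at 598, 1226, 672 and 649 CPM in members of CUS mice. In other excitatory nuclei it was between 16.9 and 32.8 CPM over the 8 mice, so the classes did not overlap (31.4-fold). Col24a1 was at 201 ± 101 CPM in members and 8.77 ± 2 CPM in other excitatory nuclei (SD, n = 8).

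Also among the 15 were Cntnap3, of the contactin-associated family (28.7-fold), Gfra1, the co-receptor for GDNF (20-fold), Fap, a membrane-bound serine protease (9.07-fold), and Lypd6b (log2 fold difference 3.53). Rgs12, a regulator of G protein signalling, was at 539 ± 105 CPM in members and 22.9 ± 3.84 CPM in other excitatory nuclei (SD, n = 8). After every nucleus had been thinned to 1000 UMIs, Rgs12 had a UMI in 43.9% of members, 1.95% of other excitatory nuclei, 6.45% of inhibitory nuclei and 2.81% of oligodendrocyte nuclei. Without thinning, the shares of members and other excitatory nuclei were 73.6% and 5.65%. Olfm3, a secreted olfactomedin, was at 1349 ± 404 CPM in members and 130 ± 25.5 CPM in other excitatory nuclei (SD, n = 8). The remaining genes of the 15 were B3gat2, Lxn and Rxfp1 from the marker list, Tmem163, Tmcc3, 1500009L16Rik and the non-coding Gm32647, which ranged from 8.51-fold to 26.9-fold.

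The same 15 genes were set against narrower groups of nuclei. The member values are those that chose the genes, so these differences are a description and no separate support. Against 794 layer 6 nuclei, chosen by Foxp2 with Rprm or Syt6, the log2 fold differences ranged from 2.66 (Olfm3) to 6.56 (Col11a1). Against 844 layer 2/3 nuclei, chosen by Cux2 with 2 of Rasgrf2, Calb1 and Enpp2, they ranged from 3.03 (Fap) to 5.89 (Cntnap3).

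The 10 genes lowest in members were taken among those with a UMI in at least 25% of other excitatory nuclei and the same direction in all 8 mice, and all 10 passed the filter in both classes. Genes detected in fewer nuclei, such as the layer 6 marker Foxp2 (log2 fold difference -2.58), were not ranked. Galntl6, a glycosyltransferase-like gene, was at 66.4 ± 46.1 CPM in members and 489 ± 106 CPM in other excitatory nuclei (SD, n = 8, FDR 7.79e-21), and it was lower in members against layer 6 (log2 fold difference -1.97) and layer 2/3 nuclei (-1.60) too. Rgs7, Cntn6 and the non-coding Gm28928 were likewise lower against both layers. Fam19a1, a secreted chemokine-like protein, was 5.78-fold lower against other excitatory nuclei, yet it did not differ detectably from layer 6 nuclei (log2 fold difference 0.11, FDR 0.79). Epha6, an ephrin receptor (-0.16, FDR 0.633), Prr16 (-0.41, FDR 0.304) and Pdzrn3 (0.23, FDR 0.691) also missed the threshold against layer 6 nuclei. All 4 were lower against layer 2/3 nuclei, with log2 fold differences of -2.69, -2.55, -2.49 and -2.77 in the same order. Gpc6 and Trpm3 were lower against both, by 0.86 on the log2 scale against layer 6.

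**Figure D2:**
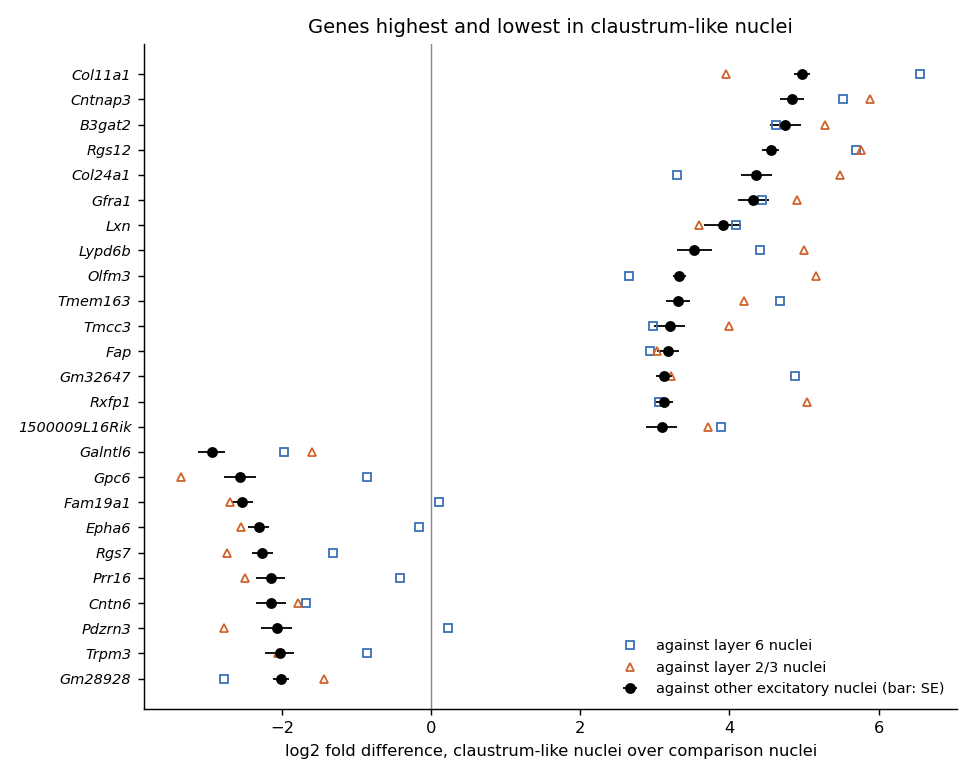
Log2 fold difference of the 15 highest and 10 lowest genes of members, over other excitatory nuclei (black, bar: SE), layer 6 nuclei (squares) and layer 2/3 nuclei (triangles). The 15 upper genes lie at 2.66 or above in each comparison, while Fam19a1, Epha6, Prr16 and Pdzrn3 lie near 0 against layer 6.

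Nr4a family receptors can bind, as monomers, the sequence AAAGGTCA, and its letters were looked for on both strands in promoter windows of 300 bases (250 before to 50 after the transcript start, RefSeq, GRCm38.p6). Of the 20 genes made up of the 5 positive gate genes and the 15 highest genes, 13 had a promoter in the table, with 21 windows in all. The motif occurred in 1 of these 21 windows, that of Col24a1, and in 495 of all 32851 windows (1.51%). That window is chr3:145292222-145292521 on the plus strand, shown because it is the one match, with the motif in capitals:

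Col24a1: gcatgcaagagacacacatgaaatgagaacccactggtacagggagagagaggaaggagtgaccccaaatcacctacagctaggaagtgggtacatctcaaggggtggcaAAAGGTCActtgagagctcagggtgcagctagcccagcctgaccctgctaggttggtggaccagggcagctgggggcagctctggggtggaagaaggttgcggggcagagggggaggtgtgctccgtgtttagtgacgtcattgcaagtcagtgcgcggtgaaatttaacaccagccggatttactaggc

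Receptors for neuromodulators were described as a group, because claustral neurons receive serotonergic, cholinergic and noradrenergic input. Of 41 listed receptors, 14 were tested, 6 were higher in members, 2 were lower and 6 were not called, with a median log2 fold difference of 0.20 against 0.02 over all genes, of which 9.5% were higher and 10.3% lower. Sstr2 and Adra2c passed the filter in members alone, and Cckbr and Crhr1 in other excitatory nuclei alone. Of the 9 receptors that passed in both classes, 4 were higher and 0 lower. Sstr2, a somatostatin receptor, was at 115, 101, 141 and 116 CPM in members of control mice and at 206, 153, 77.6 and 96 CPM in members of CUS mice, against 14.6 ± 2.59 CPM in other excitatory nuclei (SD, n = 8, 8.45-fold). The serotonin receptors Htr2a (2.87-fold) and Htr2c (2.67-fold), the muscarinic receptors Chrm2 (2.56-fold) and Chrm3 (1.72-fold) and the adrenergic receptor Adra2c (4.56-fold) were higher in members of all 8 mice. Chrm3, at 863 CPM in members without TMM scaling, was at 886 CPM in the non-member nuclei with Nr4a2 and a layer 6b marker. Htr1f was not called against all other excitatory nuclei (log2 fold difference 0.11, SE 0.13, FDR 0.638), but it was lower than in layer 6 nuclei (-1.17, FDR 5.62e-12) and higher than in layer 2/3 nuclei (2.58, FDR 2.55e-19). Cckbr, a cholecystokinin receptor, was lower (22.2 ± 10.4 against 59 ± 7.47 CPM, SD, n = 8), as was the CRH receptor Crhr1, while the peptide Cck itself was higher (524 ± 80.5 against 323 ± 47.4 CPM, SD, n = 8).

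Genes of the excitatory synapse were a further list. Of 43 tested, 3 were higher, 20 lower and 20 not called, beside 9.5% higher and 10.3% lower over all genes. All 43 passed the filter in both classes, and their median log2 fold difference was -0.24 against 0.02 over all genes. AMPA receptor subunits split, since Gria4 was at 2786 ± 641 CPM in members and 1085 ± 127 CPM in other excitatory nuclei and Gria3 at 772 ± 143 against 1554 ± 162 CPM (SD, n = 8), while Gria1 and Gria2 were not called. NMDA receptor subunits split as well. Grin3a was 4.62-fold higher, and Grin1, Grin2a and Grin2b were lower by 1.27-fold, 1.63-fold and 1.28-fold, each in all 8 mice. The metabotropic receptor Grm3 (3.6-fold) and the adhesion protein Nlgn1 (2.17-fold) were also lower in all 8 mice.

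Partners of the gate genes were examined from a list of 23, of which 16 were tested, 3 were higher, 3 lower and 10 not called (median log2 fold difference 0.04), beside 9.5% higher and 10.3% lower over all genes. Of the 12 that passed the filter in both classes, 1 was higher and 3 were lower. Ntng1, the paralog of the gate gene Ntng2, was at 71.3 ± 45.9 CPM in members and 268 ± 23.3 CPM in other excitatory nuclei (SD, n = 8). Its postsynaptic ligand Lrrc4c was also lower (2.57-fold, FDR 1.88e-19), whereas Lrrc4, the ligand of Ntng2, was not called (FDR 0.37). Against layer 6 nuclei the log2 fold difference of Ntng1 was 0.57 (FDR 0.107). Its level was uneven among members, at 24.5 CPM in those of the main cluster and 284 CPM in the 40 outside it, against 50 CPM in layer 6 nuclei. Among relatives of Nr4a2, Nr4a3 passed the filter in members alone and was 2.44-fold higher there (7 of 8 mice). Nr4a1 was not called (log2 fold difference -0.01, SE 0.20). The mu opioid receptor Oprm1, which also passed the filter in members alone, was 1.74-fold higher there, in 6 of 8 mice. Oprm1 was not called against layer 6 nuclei (log2 fold difference -0.15, FDR 0.783). Without TMM scaling, it was at 136 CPM in the non-member nuclei with Nr4a2 and a layer 6b marker against 49 CPM in members. Gnb1 was higher (6 of 8 mice) and Gnb5 lower (8 of 8 mice).

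Of 21 activity-regulated genes tested outside the gate, 3 were higher in members, 2 lower and 16 not called, beside 9.5% higher and 10.3% lower over all genes. Of the 15 that passed the filter in both classes, 2 were higher and 2 lower. Bdnf, the neurotrophin, was at 281 ± 70.3 CPM in members and 74.1 ± 10.9 CPM in other excitatory nuclei (SD, n = 8, 3.79-fold, FDR 1.88e-20). Scg2 and Nr4a3 were the others that were higher, of which Nr4a3 passed the filter in members alone. Vgf and Nrn1 were lower. In the list of glucocorticoid pathway genes, 2 of 11 tested were higher (Mt1 and Hsp90ab1) and 3 lower, of which 2 passed the filter in other excitatory nuclei alone. The 3 were Nr3c2, the mineralocorticoid receptor (59.6 ± 37.7 against 122 ± 23 CPM, SD, n = 8), and the steroid-responsive genes Sgk1 (3-fold) and Zbtb16 (2.52-fold). Nr3c1, the glucocorticoid receptor, was not called (log2 fold difference -0.22, FDR 0.261). Among 35 ribosomal protein genes 1 was called, Rps3, which was higher.

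The share of nuclei that were members was compared between conditions, with the mouse as the unit. It was 0.986%, 1.26%, 1.03% and 1.01% in the 4 control mice and 0.814%, 0.753%, 0.693% and 1.11% in the 4 CUS mice. CUS mice 1 to 3 lay below all control mice, and CUS mouse 4 lay among them, so the groups overlapped. The means were 1.07% ± 0.128 and 0.842% ± 0.184 (SD, n = 4 each), and the difference did not pass the threshold (two-sided exact permutation test, p = 0.114, smallest p that 4 against 4 mice allow 0.0286). With 1 mouse left out, the exact permutation p was 0.0286 without CUS mouse 4 and between 0.114 and 0.229 without any other mouse. Exact 95% binomial intervals, which cover counting error alone, ran from 0.449% to 1.02% for the lowest mouse and from 0.968% to 1.62% for the highest.

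The answer depended on what was counted. Nuclei of the cluster that held most members made up 1.54%, 1.66%, 1.53% and 1.5% in control mice and 1.04%, 1.13%, 1.28% and 1.46% in CUS mice, without overlap (exact permutation p = 0.0286). Members with Slc17a7 made up 2.99% ± 0.405 of excitatory nuclei in control mice and 1.95% ± 0.534 in CUS mice (SD, n = 4, exact permutation p = 0.0286). Both parts of that ratio varied, since members with Slc17a7 were 0.58% to 0.618% of all nuclei in control mice and 0.518%, 0.319%, 0.305% and 0.698% in CUS mice, while excitatory nuclei were 16.2% to 22% and 16.7% to 28.7% of all nuclei. CUS mouse 4 had the highest value of both, so of all nuclei the conditions overlapped. Thinned to 1000 UMIs, the shares were 0.611% ± 0.0863 and 0.514% ± 0.156 (SD, n = 4, exact permutation p = 0.343). Among nuclei with a doublet score of at most 0.2, they were 1.14% ± 0.13 and 0.838% ± 0.176 (SD, n = 4, exact permutation p = 0.0857). The share of striatal nuclei, chosen by Rgs9 with a further striatal marker, moved in the same direction, at 7.02% to 9.07% in control mice and 2.91% to 6.52% in CUS mice. The paper counts striatal cells and claustrum as non-cortical contamination of its cortex dissections. Neither the part of the dissection nor that of the striatal share in the difference was tested.

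**Figure D3:**
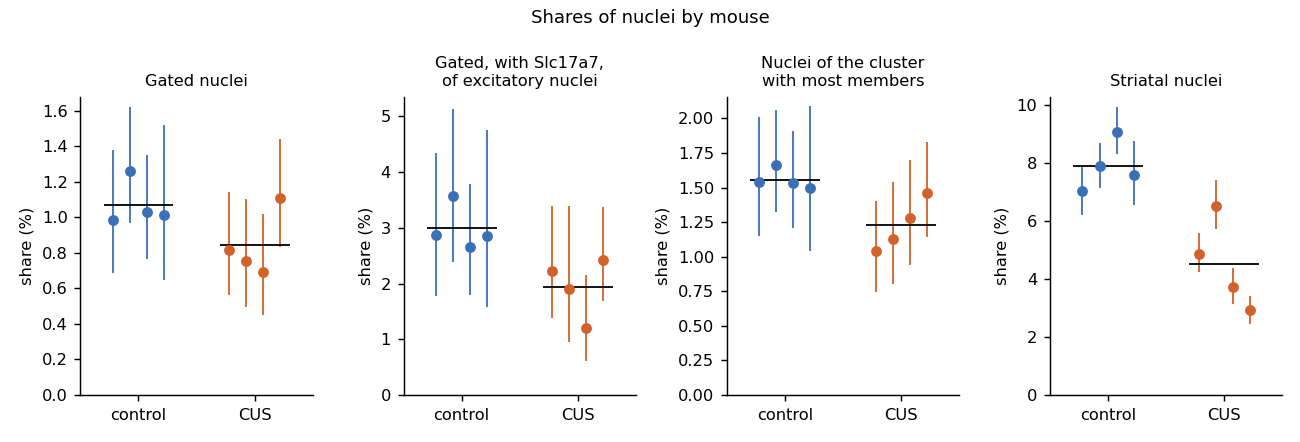
Share of nuclei in each mouse (%), with exact 95% binomial intervals as bars and the group mean as a black line, for gated nuclei, gated nuclei with Slc17a7 among excitatory nuclei, nuclei of the cluster with most members, and striatal nuclei. Control and CUS mice overlap in the first panel and are apart in the other panels.

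Gene expression within the members was then compared between conditions on UMIs summed per mouse. These sums were small, between 70295 UMIs (control mouse 4) and 258289 UMIs (control mouse 2), which limits what could be detected. No batch term was fitted, which is a further limit. Members with a doublet score over 0.2 were kept, although the study removed nuclei above that score. They were 11.8%, 8.2%, 7.84% and 8.7% of members in control mice 1 to 4. In CUS mice 1 to 4 they were 21.2%, 19.2%, 8% and 16.7%. Without them, 0 of 6213 genes were called at an FDR of 0.2. No gene of the 6485 tested outside the gate passed an FDR of 0.2, so that 0% were called (edgeR quasi-likelihood test). An unadjusted p under 0.05 was reached by 419 genes (6.46%), and in 206 genes (3.18%) the 4 control and 4 CUS mice did not overlap. DESeq2 called 0 genes, with 158 at an unadjusted p under 0.05, and edgeR's likelihood ratio test called 7. The difference of the CUS effect between members and other excitatory nuclei passed an FDR of 0.2 for 0 of 6485 genes (0%), with 290 at an unadjusted p under 0.05 in edgeR and 0 called by its likelihood ratio test.

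The gate genes are given as values. Nr4a2 was at 1076, 888, 826 and 1121 CPM in members of the control mice and at 1040, 1166, 1095 and 998 CPM in members of the CUS mice. Gnb4 ranged from 680 to 942 CPM in control and from 516 to 874 CPM in CUS mice, Synpr from 691 to 1150 and from 508 to 1055 CPM, and Oprk1 from 471 to 702 and from 511 to 574 CPM. Ntng2 ranged from 260 to 524 CPM in control and from 313 to 542 CPM in CUS mice. The conditions overlapped for all 5 genes.

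The lowest p values in each direction, 5 genes each, are given as uncalled values. Chsy3, a chondroitin sulfate synthase (chromosome 18, 59175401 to 59410446), was at 76.9, 116, 98.7 and 204 CPM in control mice and at 35.9, 41.7, 26.1 and 32.2 CPM in CUS mice. All 4 CUS mice lay below all 4 control mice, on 71 UMIs in control and 17 UMIs in CUS members (log2 fold change -1.75, SE 0.39, FDR 0.242). Kcnj3, a subunit of G protein-gated potassium channels, was at 221, 320, 234 and 218 CPM in control mice and at 108, 139, 183 and 133 CPM in CUS mice, also without overlap (log2 fold change -0.92, SE 0.25, FDR 0.477). Evi5 (log2 fold change -0.94) and Mbtps2, a membrane protease (-2.22, 40 UMIs against 7), had no overlap either. Trhde, the ectoenzyme that degrades thyrotropin-releasing hormone, was at 462 to 699 CPM in control and 274 to 486 CPM in CUS mice (log2 fold change -0.74), where CUS mouse 2 reached into the control range.

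The 5 genes with a positive change rested on fewer molecules. Kcnip1, a potassium channel-interacting protein, had 9 UMIs in control and 35 UMIs in CUS members, at 48.1, 7.72, 0 and 29.1 CPM and at 86.1, 55.5, 65.2 and 64.4 CPM (log2 fold change 2.15, SE 0.56, FDR 0.477). Mt3, a metallothionein, had 10 and 35 UMIs and Serpine2, a serine protease inhibitor, 10 and 32 UMIs. B3gat3 had 9 and 32 UMIs and Ift172 had 6 and 25 UMIs. Mice of the 2 conditions did not overlap for Kcnip1, Mt3 and Serpine2, and they did for B3gat3 and Ift172.

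**Figure D4:**
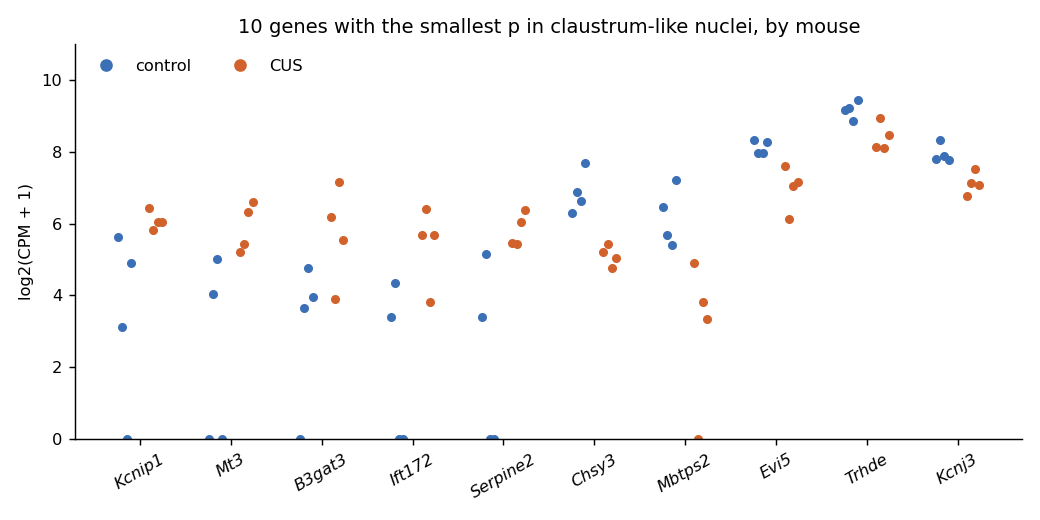
Level in members of the 10 genes named between conditions, 5 with a positive and 5 with a negative change, as log2(CPM + 1), with 1 point for each of 4 control (blue) and 4 CUS (orange) mice. None passed an FDR of 0.2. Control and CUS points do not overlap for Kcnip1, Mt3, Serpine2, Chsy3, Mbtps2, Evi5 and Kcnj3.

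The gene lists gave no calls between conditions. Of 20 activity-regulated genes tested in members, 13 were higher and 7 lower in CUS mice by their fitted value, with a median log2 fold change of 0.09 against 0.01 over all genes and 1 gene at an unadjusted p under 0.05. Nr4a1 was at 38.4, 42.5, 51.9 and 43.7 CPM in control and at 64.6, 139, 52.2 and 64.4 CPM in CUS members (log2 fold change 0.73, SE 0.40, FDR 0.791). Among 43 excitatory synapse genes the median was -0.05. Before adjustment, 8 of the 43 had p under 0.05, beside 6.46% over all genes. The largest values were those of Grik1 (1.49), Grm3 (-0.81) and Shank1 (0.62), and Grik1 was at 172 CPM in CUS mouse 1 and at 26.1 to 41.4 CPM in the other CUS mice. Gria1, at 548 to 769 CPM in control and 778 to 1112 CPM in CUS mice, and Nrxn3, at 1528 to 1880 and 1004 to 1444 CPM, did not overlap between conditions (FDR 0.533 each). Neither did Dlg2, at 2566 to 2949 and 2016 to 2541 CPM (FDR 0.766). Over all genes, 3.18% did not overlap. Gria1, Nrxn3 and Dlg2 were picked out after their values were seen. The 12 neuromodulator receptors had a median of -0.03 and values from -0.67 (Htr2c) to 0.32. The 9 glucocorticoid pathway genes had a median of 0.16 and 0 calls, and the 16 partners of the gate genes a median of 0.31. Of 35 ribosomal protein genes, 29 had a positive and 6 a negative value, with a median of 0.37, and Rps24 had the largest change (1.21, FDR 0.533). Over all 6485 genes, 3278 had a positive and 3207 a negative value. Without TMM scaling, all 86 listed ribosomal genes summed to 1851 to 2239 CPM in control and 1788 to 2761 CPM in CUS members, with overlap. In other excitatory nuclei they summed to 1751 to 1959 and 1603 to 2685 CPM. The 5 neuropeptide genes ranged from -0.28 to 0.32. The 8 claustrum markers outside the gate had a median of 0.01, with Nnat at 0.89 and Cdh9 at -0.62.

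To measure Nr4a2 in nuclei whose choice did not use it, the gate was changed to at least 3 of Gnb4, Synpr, Ntng2 and Oprk1 with the same exclusions. This gave 287 nuclei, of which 225 were members. Their Nr4a2 level was 845, 728, 758 and 968 CPM in control mice and 956, 978, 873 and 817 CPM in CUS mice, with overlap. The means were 825 ± 108 and 906 ± 74.8 CPM (SD, n = 4 each). The log2 fold change was 0.15 with a 95% interval of -0.20 to 0.49 (edgeR quasi-likelihood test, SE 0.18, FDR 0.933). In the nuclei of the main cluster, a set examined after its values were seen, Nr4a2 was at 923 to 994 CPM in control and 1076 to 1240 CPM in CUS mice without TMM scaling. These groups did not overlap (two-sided exact permutation p = 0.0286), while the edgeR fit gave a log2 fold change of 0.22 (SE 0.15, FDR 0.822). Nr4a2 took part in that clustering. Over all nuclei of a mouse, Nr4a2 was at 30.9, 40.4, 39.3 and 40.5 CPM in control mice and at 46, 38.7, 33.8 and 50.1 CPM in CUS mice (two-sided exact permutation p = 0.343, n = 4 each).

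Bulk nuclei of the mPFC came from other mice and, by the study's methods, from a tissue punch centred on the midline. No cell type was separated there, so the bulk values cannot be assigned to claustrum-like nuclei. Of 18394 genes tested there, 3.29% were called at an FDR of 0.05, and 2.13% were called lower in CUS mice. Of the 5 positive gate genes, 1 was called, which was Nr4a2. It was at 7.96, 10.8, 6.16 and 9 CPM in the 4 control mice and at 2.1, 3.39, 2.69, 2.52 and 1.93 CPM in the 5 CUS mice. Every CUS mouse lay below every control mouse (log2 fold change -1.76, SE 0.18, 95% interval -2.11 to -1.40, edgeR FDR 0.00107). In bulk samples, fewer cells of a type and less RNA per cell cannot be told apart.

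Gnb4 was at 26.3 ± 2.75 CPM in control (n = 4) and 22.1 ± 1.27 CPM in CUS mice (n = 5, SD), which missed the threshold (log2 fold change -0.25, edgeR FDR 0.0844). It passed in 2 of the other settings, by DESeq2 (adjusted p 0.0452) and without control mouse 3 (-0.32, edgeR FDR 0.0146), and its FDR ranged up to 0.181 over all settings. The log2 fold changes of Synpr (0.19), Ntng2 (-0.16) and Oprk1 (-0.18) were not called either. Oprk1 was at 8.58 CPM in control mouse 4 and at 3.21 to 3.47 CPM in the other control mice, and without control mouse 4 its log2 fold change was 0.30. Of the 10 claustrum markers outside the gate that were tested in bulk, 2 were lower, B3gat2 (log2 fold change -0.61, FDR 0.0173) and Nnat (-1.03, FDR 0.00566), and 8 were not called, with a median of -0.08. Of the 15 genes highest in members, 2 were lower in bulk (B3gat2 and Gm32647) and 13 were not called. Over all genes tested in bulk, 2.13% were lower, and B3gat2 is in both of these lists.

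Activity-regulated genes were read in the same bulk samples. Of 39 genes tested, 11 were lower in CUS mice, 2 higher and 26 not called, beside 2.13% lower and 1.16% higher over all genes, with a median log2 fold change of -0.24 against 0.01 over all genes. Fos was at 6.49 to 9.69 CPM in control and 3.34 to 4.97 CPM in CUS mice (log2 fold change -1.05, FDR 0.00566), and Nr4a3 fell by 1.19 on the log2 scale (FDR 0.00953). Nr4a1 was not called (-0.17, FDR 0.211). Single nuclei and bulk differed in region, mice, age, library type and in the behavioural tests that came before the bulk samples were taken, and the 2 changes of Nr4a2 were not tested against each other.

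**Figure D5:**
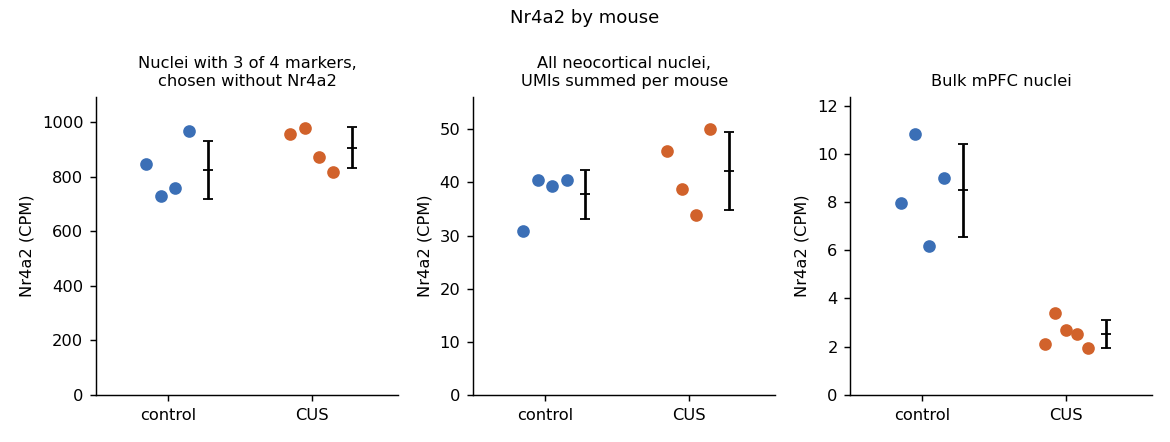
Nr4a2 level (CPM) in each mouse, with mean and SD beside the points, in nuclei chosen by 3 of 4 markers without Nr4a2, in all neocortical nuclei summed per mouse, and in bulk mPFC nuclei. Control and CUS mice overlap in the first 2 panels, and in bulk all 5 CUS mice (1.93 to 3.39 CPM) lie below the 4 control mice (6.16 to 10.8 CPM).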

How the data were processed

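The deposited single-nucleus files hold raw UMI counts per gene and barcode, 5000 barcodes per mouse, which the authors made from exonic and intronic reads mapped to mm10 with the Gencode vM13 genes. The deposited bulk files hold raw read counts per gene, which the authors made after mapping with STAR to mm10. The version of STAR is not given in the sources used here. Condition and replicate came from the sample labels, and each mouse is 1 replicate.

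Barcodes with 600 to 5000 genes and under 5% mitochondrial UMIs were kept. Doublet scores (Scrublet in scanpy 1.11.5) were computed and used in an alternative, and no nucleus was removed by them in the main results. Clusters came from Seurat 5.3.0 (2000 variable genes, 50 components, resolution 1). UMIs were summed per mouse and class, and a gene was tested if its UMIs, added over mice, were more than 10% of the number of nuclei (in either class for the class comparison). Tests used edgeR 4.0.16 in R 4.3.3 (TMM, quasi-likelihood, Benjamini-Hochberg FDR). Bulk counts were filtered with filterByExpr. Standard errors in edgeR were worked back from the fitted log2 fold change and its test statistic. The 95% intervals of log2 fold changes use a normal approximation, which does not allow for the small number of mice. Slc17a7, which chose the comparison nuclei, was left out of the class comparison. Alternatives used the likelihood ratio test, DESeq2 1.42.0, no TMM factors, no filter, a replicate block, other gates and each mouse left out. The tests were also run on simulated counts drawn with the spread of these data. That outcome is not reported here and is not used to say what the tests could detect. The members and the gene lists were chosen with earlier results of these data known. Genes were named by rule: the gate genes, called members and largest changes of each list, 15 highest and 10 lowest genes of the class comparison, and the 5 lowest p values in each direction between conditions. Some genes named by rule are left out of the text. Binomial intervals and count limits cover counting error alone.

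The labels do not say whether mice with the same replicate number were paired, and the main fits did not pair them. The deviations of same-numbered control and CUS members from their group means correlated at 0.0234, -0.0173, 0.0031 and -0.035. Counting noise in small sums pulls such correlations towards 0, so they cannot decide whether the mice were paired. Pairs of mice within a group differed by more than counting noise (chi-square per degree of freedom 1.28 to 1.87).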

Additional observations from a re-analysis of the deposited data

Results flagged for a closer look

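In 48 groups of 4 or 5 mice, 3 had a mouse standing apart from the rest of its group, and chance gives about 1 in 20. Control mouse 2 had a member share of 1.26%, against 0.986% to 1.03% in the other control mice, and without it the difference in share between conditions was -0.168 percentage points. Control mouse 2 also stood apart in Kcnj3 in member nuclei, at 320 CPM against 218 to 234 CPM in the other control mice. In bulk mPFC, control mouse 4 had Oprk1 at 8.58 CPM against 3.21 to 3.47 CPM in the other control mice, and the same mouse had Rgs9 at 92.2 CPM and Col11a1 at 15.7 CPM, each above the other 8 mice. The cause was not tested.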

How the results depend on the processing

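The difference in member share was negative in all settings run. It was -1.044 percentage points among excitatory nuclei and -0.332 for the cluster with most members (exact permutation p = 0.0286 each), and ranged from -0.320 (without CUS mouse 4) to -0.168 (without control mouse 2) with 1 mouse left out. Between conditions in members, 0 genes were called in the main test, 0 with a replicate block, 0 by DESeq2, 7 by the likelihood ratio test (B3gat3, Chsy3, Evi5, Ift172, Kcnip1, Mbtps2 and Mt3), 1 with at least 3 of 4 markers (Ntng1) and 3 over all nuclei of the main cluster (Grm3, Tnfaip8l3 and Vwc2l), an alternative chosen after seeing the data. Leaving out 1 mouse gave 0 to 7 calls, with 4 without control mouse 1, 1 without control mouse 2 and 7 without CUS mouse 2. The difference of the CUS effect between classes gave 0 to 2 calls when 1 mouse was left out (2 without control mouse 2, 2 without control mouse 3 and 1 without CUS mouse 1). The class comparison gave 593 calls of 2324 genes tested after thinning to 1000 UMIs, where fewer genes were tested, 1141 with no replicate block and 1144 to 1295 with 1 mouse left out, against 1339. Without the filter, 423 genes were called higher and 1513 lower. Fam19a1 (0.11) and Pdzrn3 (0.23) changed sign against layer 6 nuclei. In bulk, DESeq2 called 3 of the 9 genes of the gate (Nr4a2, Gnb4 and Slc1a3) and leaving out 1 mouse gave 1 to 2, with 2 without control mouse 3 (Nr4a2 and Gnb4), against 1. With 1 mouse left out, the log2 fold change of Oprk1 in bulk ranged from -0.33 to 0.30, the latter without control mouse 4. The cause was not tested. With the replicate block, which paired mice by number alone, Nr4a2 in nuclei chosen without it had a log2 fold change of 0.14, and 1 gate gene was called in bulk. The sums of members were small, and this limits what a test between conditions could detect. The batches, which could not be fitted, are a further limit.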
